A study of Mus musculus with 4 samples.

Results

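The 5 vascular endothelial growth factor (VEGF) ligands Vegfa, Vegfb, Vegfc, Vegfd and Pgf and the 5 receptors Kdr, Flt1, Flt4, Nrp1 and Nrp2 were followed across 4 single-cell RNA libraries of C57BL/6 mice. These 10 genes were taken by name from the 31017 gene symbols measured, and all 10 had counts in every library. Each library is 1 sorted population from 1 tissue: P1 and P2 from fat, and P1 and P2 from lung. Sorting took cells without the leukocyte antigen CD45 or the red cell antigen Ter119 that carried Tie2, the angiopoietin receptor. Cells in the P1 gate had CD31 and high CD105 but no PDGFRa and little Sca1. Cells in the P2 gate had PDGFRa and high Sca1 but no CD31 and little CD105. No treatment was applied according to the labels. The age, sex and number of the animals behind a library are not given in the sources used here. With 1 library per group there was no replicate, so no test was run, and every interval below covers counting error only.

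VEGF-A is the main growth and survival factor of blood vessel endothelium, and it signals through VEGFR2, the product of Kdr. VEGFR1, the product of Flt1, binds VEGF-A, VEGF-B and placental growth factor (Pgf) tightly and signals weakly, and a soluble form of it acts as a decoy. VEGF-C and VEGF-D are made as precursors, and after cleavage they act through VEGFR3 (Flt4), the receptor best known from lymphatic vessels. Neuropilin 1 (Nrp1) and neuropilin 2 (Nrp2) are co-receptors that bind VEGFs and class 3 semaphorins. In the lung, alveolar epithelium is a known source of VEGF-A for the capillaries around it, and in fat the stroma between adipocytes holds the progenitors of new adipocytes close to vessels.

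The tissue labels of the P1 libraries went against their markers. Levels are given as CPM, the UMIs (counted transcript molecules) of a gene scaled to the same library total. Fabp4, which fat capillaries make to carry fatty acids, had 96.5 CPM in the P1 library labelled fat and 12385 CPM in the one labelled lung. The lung regulator Foxf1 had 715 and 3.60 CPM in the same order, and the surfactant gene Sftpc 756 and 0 CPM. They are therefore named only by their labels. For the VEGF ligands and receptors, the value with both exchanged is given where a direction or a call turns on it. The pathway lists were not recounted with the libraries exchanged. Both P1 libraries held endothelial RNA: Pecam1, which encodes CD31, stood at 1749 and 1222 CPM, against 2.64 CPM in fat P2 and 85.5 CPM in lung P2. Pdgfra stood at 445 CPM in fat P2 and 1762 CPM in lung P2, and at 9.46 and 14.4 CPM in the P1 libraries. After filtering, 1918 cells with 6344135 UMIs were kept in the P1 library labelled fat, 7399 with 39076362 in fat P2, 649 with 1110683 in the P1 library labelled lung and 1420 with 3801205 in lung P2. A count of 0 in a whole library allows up to 0.473, 0.0768, 2.70 and 0.789 CPM in that order. In the P1 library labelled lung, counts varied between 161 barcodes about as much as random draws from 1 pool would (median variance 1.01 times the binomial one). The medians elsewhere were little higher, at 1.07 in the P1 library labelled fat, 1.04 in fat P2 and 1.09 in lung P2. Kdr and Flt1 stood at 1.46 and 1.24 in the P1 library labelled lung. The barcodes of this library were not shown to be single cells, and its clusters are not read as cell states. Barcode sequences also occurred in more than 1 library, for 28, 66, 77 and 10 of the deposited barcodes in the same order.

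The 250 bases before the RefSeq start of 4 members are shown, because Kdr and Flt1 set the P1 libraries apart from the P2 libraries in both tissues and Vegfd and Vegfa had the widest range among the ligands. All 10 members had an entry in the RefSeq promoter table of GRCm38.p6, and Vegfa had 2, of which the one nearest to its GENCODE start is shown. In GENCODE vM21 the genes span chr5:75932827-75978458 (Kdr), chr5:147561604-147726011 (Flt1), chrX:164373378-164402650 (Vegfd) and chr17:46016993-46032369 (Vegfa). The windows are chr5:75978456-75978705 on the minus strand for Kdr, chr5:147726012-147726261 on the minus strand for Flt1, chrX:164373272-164373521 on the plus strand for Vegfd and chr17:46032378-46032627 on the minus strand for Vegfa, all written 5′ to 3′ along the gene. Capitals mark 5 short motifs on either strand. GGAAG is the core bound by ETS factors, TGACGTCA the cAMP response element and ACGTG 1 form of the hypoxia response element core. GGGCGG is a GC box, and TATAAA is known as the TATA box. The GCGTG form of the hypoxia core was not searched.
Kdr: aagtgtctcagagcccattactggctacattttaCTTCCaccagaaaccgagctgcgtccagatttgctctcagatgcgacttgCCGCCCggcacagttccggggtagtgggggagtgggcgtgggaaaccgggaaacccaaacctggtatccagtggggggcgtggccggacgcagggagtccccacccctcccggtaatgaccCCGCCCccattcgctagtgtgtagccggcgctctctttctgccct
Flt1: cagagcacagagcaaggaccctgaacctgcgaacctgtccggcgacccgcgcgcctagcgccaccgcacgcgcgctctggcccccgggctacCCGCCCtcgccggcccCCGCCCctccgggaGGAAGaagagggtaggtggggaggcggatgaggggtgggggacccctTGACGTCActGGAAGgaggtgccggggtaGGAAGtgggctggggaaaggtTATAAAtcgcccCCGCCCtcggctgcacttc
Vegfd: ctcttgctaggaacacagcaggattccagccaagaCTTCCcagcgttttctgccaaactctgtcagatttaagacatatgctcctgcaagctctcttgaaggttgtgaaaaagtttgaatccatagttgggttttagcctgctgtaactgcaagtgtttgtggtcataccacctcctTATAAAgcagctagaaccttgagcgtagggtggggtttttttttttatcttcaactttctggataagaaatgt
Vegfa: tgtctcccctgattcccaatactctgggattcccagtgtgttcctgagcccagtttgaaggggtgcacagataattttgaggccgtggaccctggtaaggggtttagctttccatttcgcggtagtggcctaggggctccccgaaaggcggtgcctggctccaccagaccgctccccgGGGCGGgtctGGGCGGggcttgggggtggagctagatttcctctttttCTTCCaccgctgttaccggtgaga
The Flt1 window held 3 ETS cores, 3 GC boxes, 1 cAMP response element and 1 TATA box, and the Kdr window held 1 ETS core and 2 GC boxes. The Vegfa window held 1 ETS core and 2 GC boxes. The Vegfd window held 1 ETS core and 1 TATA box, had no GC box and had a GC content of 42.4%, against 59.2% for Vegfa, 61.6% for Kdr and 70.4% for Flt1. Of 32851 windows of this length, 64.1% held the ETS core, 32.7% the GC box, 16.6% ACGTG, 12.4% the TATA box and 1.55% the cAMP response element. Among the 10 members, 6 windows held the ETS core, 9 the GC box, 2 the TATA box, 1 the cAMP response element and 0 held ACGTG. No base belonged to more than 1 kind of motif. These matches describe the letters of the windows and were not linked to any measured level.

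The P1 libraries were high in the 3 signalling receptors, and the P2 libraries were high in Vegfd and low in Flt4. Counts from the 3′ end do not scale with transcript length, so CPM were set side by side between genes without a length correction. Whether capture differed between genes was not tested. The counts also do not separate the splice forms of Vegfa or the soluble form of Flt1. A sum over a library cannot tell fewer cells with a gene from less RNA per cell, for which the shares of cells are given further on. A gene was called different where the ratio of CPM + 10 reached 4-fold and 1 of the compared libraries had at least 50 CPM.

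**Figure D1:**
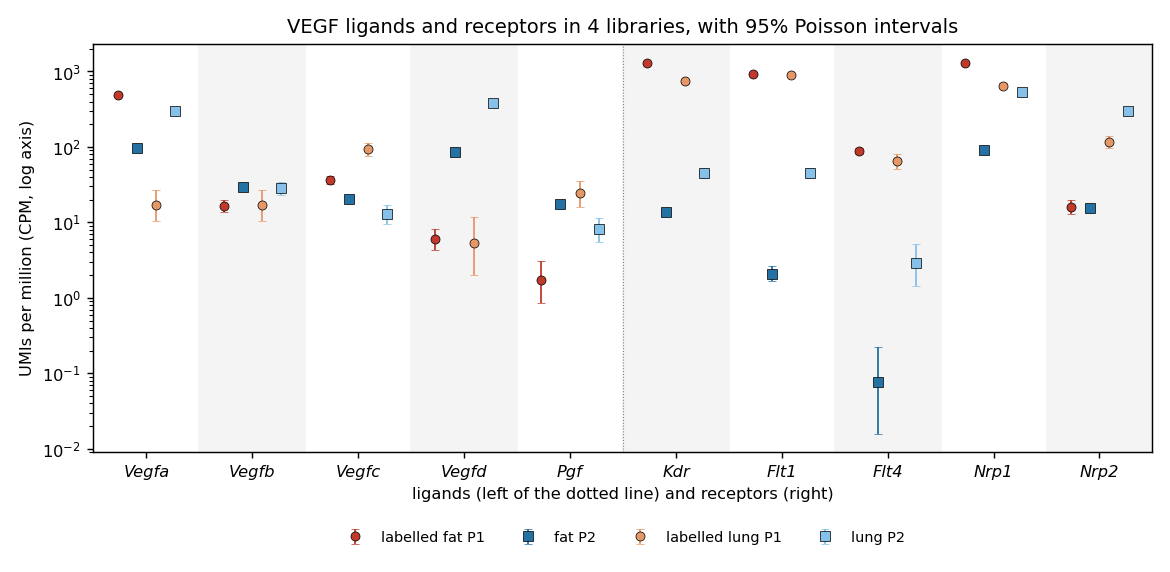
Level of each VEGF gene (x axis; 5 ligands, then 5 receptors) in CPM on a log axis, in 4 libraries of 1 sample each; points are library sums and bars exact 95% Poisson intervals, which cover counting error only. Kdr, Flt1 and Flt4 (circles for P1) sit far above the squares for P2, and Vegfd shows the opposite.

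Vegfa reached the highest level of any ligand. It stood at 489 CPM (95% interval 472 to 506) in the P1 library labelled fat, 299 CPM (282 to 317) in lung P2, 95.5 CPM (92.5 to 98.6) in fat P2 and 17.1 CPM (10.3 to 26.7) in the P1 library labelled lung. No neighbours in this order had overlapping intervals. P1 over P2 as labelled was thus 5.12-fold (4.88 to 5.37) in fat, with a log2 ratio of 2.24 after 10 CPM were added. In lung P2 was 17.5-fold (11.2 to 29.2) above P1, and the log2 ratio for P1 over P2 was -3.51. With the P1 libraries exchanged both directions turned, to -1.96 in fat and 0.69 in lung. The call in fat was also lost with TMM scaling (1.89), with median-of-ratios scaling (1.85) and with endothelial-like and fibroblast-like clusters only (1.898). Markers of alveolar epithelium moved with Vegfa in part: the 8 alveolar type 1 markers summed to 2008 CPM in the P1 library labelled fat, 395 in lung P2, 184 in fat P2 and 185 in the P1 library labelled lung, where Cldn18 was at 0 in fat P2 and Cldn18 and Rtkn2 in the P1 library labelled lung. The 8 type 2 markers summed to 1117, 5092, 36.1 and 178 CPM in the same order. Sftpb and Sftpa1 were at 0 in fat P2, and Sftpc, Sftpb, Sftpa1, Lamp3 and Slc34a2 in the P1 library labelled lung. The part of the epithelial markers in the result was not tested.

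Vegfd stood at 386 CPM (366 to 406) in lung P2 and 85.8 CPM (82.9 to 88.8) in fat P2. In the P1 libraries it was low, at 5.99 CPM (38 counts) in the one labelled fat and 5.40 CPM (6 counts) in the one labelled lung, and their intervals overlapped. The value in the library labelled lung was near its floor of 2.70 CPM. P2 exceeded P1 by 14.3-fold (10.4 to 20.3) in fat and 71.4-fold (32.7 to 195) in lung as labelled, and P2 stayed above P1 with the libraries exchanged (log2 ratios P1 over P2 of -2.64 and -4.63). Lung P2 exceeded fat P2 by 4.498-fold (4.23 to 4.78), a log2 ratio of 2.05 that fell short of 4-fold with TMM scaling (1.72), with median-of-ratios scaling (1.74) and over all deposited barcodes (1.81).

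Vegfc, the main lymphatic growth factor, stood at 92.7 CPM (75.7 to 112) in the P1 library labelled lung, 36.6 CPM (32.0 to 41.6) in the one labelled fat, 20.2 CPM (18.8 to 21.7) in fat P2 and 12.9 CPM (9.54 to 17.04) in lung P2. It was the only ligand whose 2 highest libraries were both P1. Vegfb, a ligand of VEGFR1, was low and even, at 16.6 and 17.1 CPM in the P1 libraries labelled fat and lung, 29.6 CPM in fat P2 and 28.1 CPM in lung P2. Its intervals overlapped within the P1 pair and within the P2 pair. Pgf was the lowest ligand in the P1 library labelled fat, with 11 counts (1.73 CPM), and stood at 24.3 CPM (27 counts) in the one labelled lung, 17.7 CPM (693 counts) in fat P2 and 8.16 CPM (31 counts) in lung P2. The intervals of the 2 highest libraries, 16.02 to 35.4 and 16.4 to 19.1 CPM, overlapped.

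Kdr and Flt1 marked the P1 libraries in both tissues. Kdr stood at 1286 CPM (1258 to 1314) in the P1 library labelled fat and 745 CPM (695 to 797) in the one labelled lung, against 45.0 CPM (38.5 to 52.3) in lung P2 and 13.8 CPM (12.6 to 14.98) in fat P2. Flt1 stood at 915 CPM (892 to 939) and 905 CPM (850 to 963) in the P1 libraries, whose intervals overlapped, at 45.2 CPM (38.7 to 52.5) in lung P2 and at 2.10 CPM (82 counts) in fat P2, where leaving out 46 barcodes also found in another library left 69 counts. P1 over P2 as labelled was 93.4-fold (85.6 to 102) for Kdr and 436-fold (351 to 549) for Flt1 in fat, and 16.6-fold (14.0 to 19.6) and 19.997-fold (16.995 to 23.6) in lung. The lung values depend on the barcodes used: the log2 ratio after 10 CPM were added was 3.78 for Kdr and 4.05 for Flt1, 4.38 and 4.70 without barcodes found in more than 1 library, and 4.92 and 5.40 among cells with at most 5% mitochondrial UMIs. Flt4 stood at 88.9 CPM (81.7 to 96.6) and 64.8 CPM (50.7 to 81.6) in the libraries labelled fat P1 and lung P1, and at 2.89 CPM (11 counts) in lung P2. In fat P2 it had 3 counts among 39076362 UMIs, so its ratio of 1158 carried a counting interval from 394 to 5632.

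The neuropilins did not share this pattern. Nrp1 stood at 1285 CPM (1257 to 1313) in the P1 library labelled fat, 652 CPM (605 to 701) in the one labelled lung, 540 CPM (517 to 564) in lung P2 and 92.1 CPM (89.1 to 95.2) in fat P2. Lung P2 was therefore within 1.21-fold (1.11 to 1.31) of the P1 library labelled lung, while P1 exceeded P2 by 14.0-fold (13.4 to 14.5) in fat as labelled. With the P1 libraries exchanged, the log2 ratio P1 over P2 moved from 3.66 to 2.70 in fat and from 0.27 to 1.24 in lung. Nrp2 was highest in lung P2, at 300 CPM (283 to 318), followed by the P1 library labelled lung at 116 CPM (97.0 to 138), and stood at 16.1 CPM (13.1 to 19.5) in the P1 library labelled fat and 15.7 CPM (14.5 to 16.98) in fat P2. The intervals of the last pair overlapped.

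Counted by the 4-fold rule, P1 over P2 in fat as labelled put Vegfa, Kdr, Flt1, Flt4 and Nrp1 higher and Vegfd lower, 6 of the 6 members that reached 50 CPM in either library, where 22.6% of the 4724 genes tested were called (12.4% higher and 10.1% lower). Of all called genes 55.2% were higher, but 45.1% with TMM and 44.1% with median-of-ratios scaling, which moved the median of all tested genes from 0.38 to 0.045 and 0.018. In lung as labelled, Vegfc, Kdr, Flt1 and Flt4 were higher and Vegfa and Vegfd lower, 6 of 8 tested, against 20.4% of 4773 genes (8.61% higher and 11.8% lower). Vegfc missed 4-fold with the P1 libraries exchanged, as its log2 ratio went from 2.17 to 1.02. The members that missed the level in fat were Vegfb, Vegfc, Pgf and Nrp2, and in lung Vegfb and Pgf. In the P1 libraries, labelled lung over labelled fat, Nrp2 was higher by 7.22-fold (5.53 to 9.46) and Vegfa lower by a factor of 28.6 (18.3 to 47.5), 2 of 7 tested against 10.9% of 4593 genes (5.2% higher and 5.73% lower), and exchanging the libraries turns both by construction. In that comparison 47.6% of all called genes were higher, and 59.0% with median-of-ratios scaling. In the P2 libraries, lung over fat, Vegfd, Nrp1 (5.86-fold, 5.55 to 6.19) and Nrp2 (19.1-fold, 17.3 to 21.1) were higher, 3 of 4 tested against 13.1% of 4314 genes (8.25% higher and 4.84% lower). Of the called genes there 63.0% were higher, 48.6% with TMM and 49.3% with median-of-ratios scaling. Many called members reached 50 CPM only in the library where they were high. These were Kdr, Flt1, Flt4 and Vegfd in fat and all those called in lung, as labelled. Between the P1 libraries they were Nrp2 and Vegfa, and between the P2 libraries Nrp2. A member low in both libraries could not be tested, so the counts of called members do not measure how often members differ. The comparisons share libraries, so their values are not independent of each other.

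The share of cells with at least 1 UMI was counted after each cell was thinned at random to 2000 UMIs, which left 1466, 6717, 161 and 764 cells in the P1 library labelled fat, in fat P2, in the P1 library labelled lung and in lung P2. In the P1 library labelled fat, Nrp1 was found in 78.9% of cells (76.7 to 80.9), Flt1 in 76.4% (74.1 to 78.6), Kdr in 70.7% (68.3 to 73.1) and Vegfa in 46.1% (43.5 to 48.7). In lung P2, Nrp1 was found in 60.2% (56.6 to 63.7), Vegfd in 46.6% (43.0 to 50.2), Nrp2 in 41.0% (37.5 to 44.5) and Vegfa in 36.5% (33.1 to 40.0). In fat P2, which had the deepest cells, no member exceeded Vegfa at 15.99% (15.1 to 16.9), and the share of Vegfa without thinning was 32.9%. As a measure of stray RNA, Flt1 was found in 0 of 660 fibroblast-like cells of lung P2 (up to 0.557%) and in 0.0487% of 6157 fibroblast-like cells of fat P2, at median depths of 2515 and 5116 UMIs before thinning. Few cells of these libraries had Flt1, so this measure can miss stray RNA of other cells. The surfactant gene Sftpc stood at 569 to 1386 CPM in the fibroblast-like clusters of lung P2. In the endothelial-like clusters of the P1 library labelled fat it stood at 106 to 201 CPM. For Vegfa in the P1 library labelled fat the lowest cluster stood at 3.91% of cells.

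**Figure D2:**
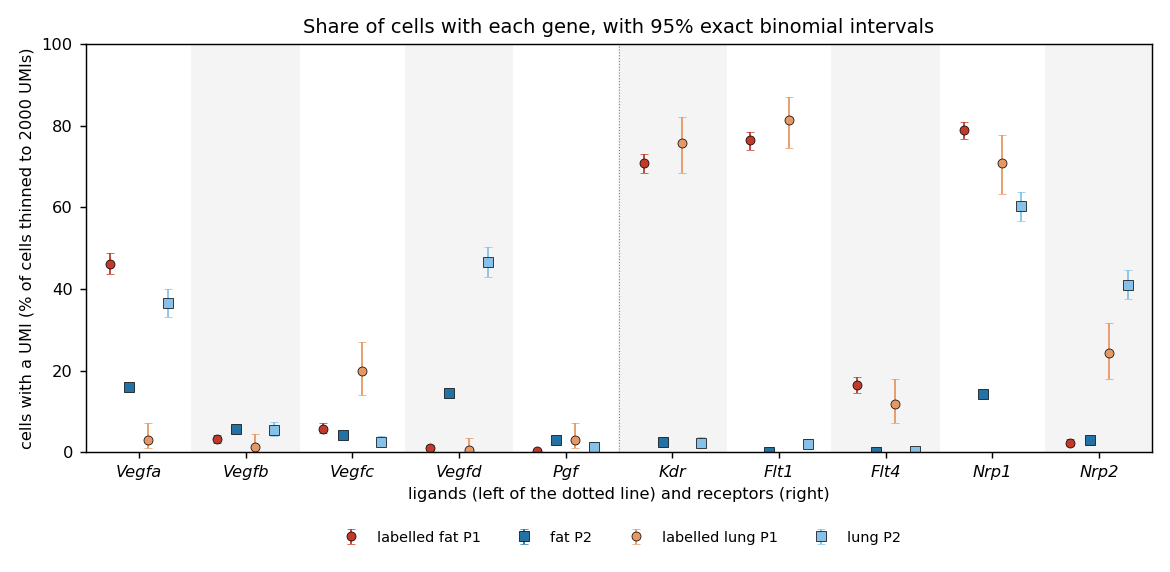
Share of cells with at least 1 UMI of each VEGF gene (y axis, percent of cells thinned to 2000 UMIs) in 4 libraries; points are shares and bars exact 95% binomial intervals. Flt1 lies at 76.4% in the P1 library labelled fat and under 2% in both P2 libraries, while Nrp1 is shared by the P1 libraries and lung P2.

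Many cells of the P1 library labelled fat held several receptors, and many lung P2 cells held a ligand and a receptor together. In the P1 library labelled fat, 51.0% of cells had 3 or more of the 5 receptors and 2.05% had none. In fat P2, 80.9% of cells had no receptor UMI and 62.8% no ligand UMI. At least 1 ligand and 1 receptor were found in 54.1% of lung P2 cells, 50.5% of cells in the P1 library labelled fat, 27.3% of barcodes in the one labelled lung and 6.85% of fat P2 cells, all at the same thinned depth. Within the P1 library labelled fat, Vegfa was found in 40.5% of cells with Kdr and in 59.7% of cells without it. In the same library Vegfa was found in 48.9% of cells with Flt1 and 37.0% of cells without it. In lung P2, Vegfd was found in 55.6% of cells with Nrp2 and 40.4% of cells without it, and Vegfa in 42.7% of cells with Vegfd and 31.1% of cells without it.

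Within the P1 library labelled fat, Kdr and Nrp1 were highest in an endothelial state with little Vegfa, and the other endothelial states held all 3 genes. Clusters were built without the 10 members and are named here by their leading genes. The largest, with 430 cells led by Ednrb, Fibin, Chst1, Tbx2 and Sirpa, was aerocyte-like: it resembles the capillary cell of the alveolus that serves gas exchange, with 10 of 10 markers at 100 CPM or more. It held Kdr at 3365 CPM (3279 to 3453) and Nrp1 at 2815 CPM (2736 to 2896), each found in 99.4% and 99.2% of its thinned cells. The 8 clusters other than this and the alveolar type 1-like one held Kdr at 314 to 741 CPM and Nrp1 at 632 to 972 CPM. This single cluster had 22.4% of the cells and 26.9% of the UMIs of the library, and gave 70.3% of its Kdr and 58.8% of its Nrp1 counts. Its Vegfa stood at 18.8 CPM (12.9 to 26.5), in 3.91% of cells (2.15 to 6.47), where the same 8 clusters stood at 126 to 805 CPM. Flt1 was also lower there, at 541 CPM (507 to 577) against 877 to 1316 CPM, while Flt4 at 98.6 CPM lay among the others (35.4 to 106 CPM).

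**Figure D3:**
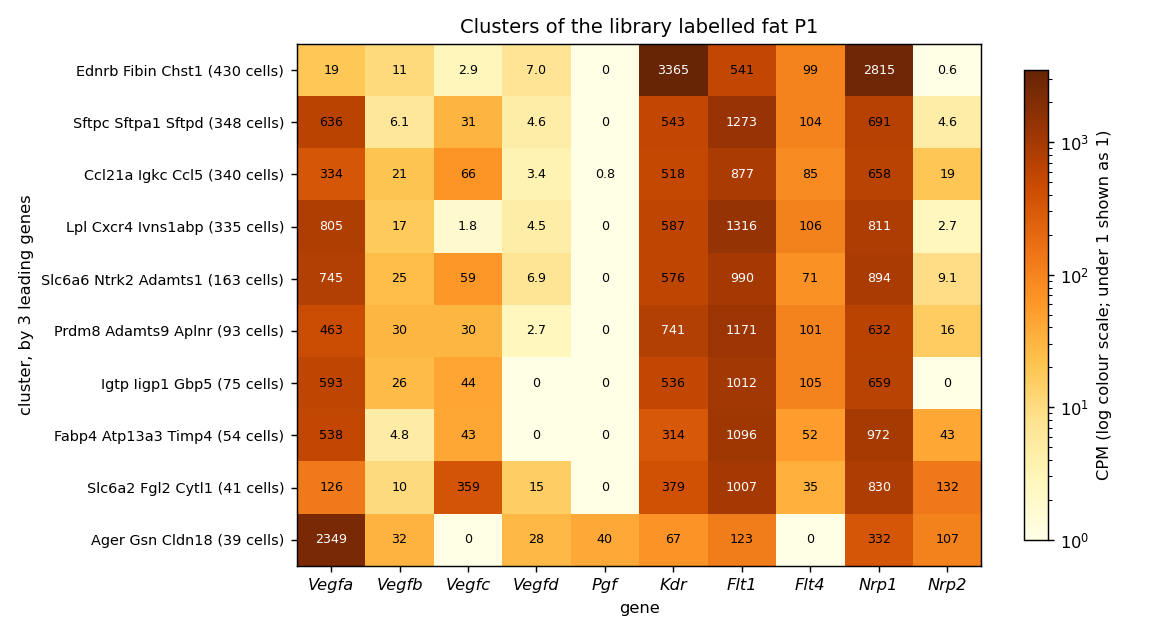
CPM of each VEGF gene (columns) in the 10 clusters of the P1 library labelled fat (rows, named by 3 leading genes, largest first), with colour on a log scale and the value printed in each cell. The top row pairs the highest Kdr (3365) and Nrp1 (2815) with Vegfa at 19, and the bottom row, with Ager, pairs Vegfa at 2349 with Kdr at 67.

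Among the other endothelial clusters, Vegfa was highest at 805 CPM (753 to 859) in the 335 cells led by Lpl, Cxcr4, Ivns1abp, Ankrd63 and Mctp1, and it was found in 73.7% (68.2 to 78.7) of them. This cluster also held the highest Flt1, at 1316 CPM (1249 to 1385). The 163 cells led by Slc6a6, Ntrk2, Adamts1, Cdk19 and Sema3c held Vegfa at 745 CPM, the 75 cells led by the interferon-induced genes Igtp, Iigp1, Gbp5, Gm4951 and Ciita 593 CPM, and the 93 general-capillary-like cells led by Prdm8, Adamts9, Aplnr, Kcnh1 and Ddx3y 463 CPM. An unnamed cluster of 348 cells led by the surfactant genes Sftpc, Sftpa1, Sftpd and Sftpb and by Lyz2 held Vegfa at 636 CPM, beside Kdr at 543 and Flt1 at 1273 CPM. The highest Vegfa of the library belonged to 39 alveolar type 1-like cells led by Ager, Gsn, Cldn18, Akap5 and Col4a4, at 2349 CPM (2164 to 2546). This cluster had 2.03% of the cells, 19.2% of the Vegfa counts and 10 of the 11 Pgf counts. At Leiden resolution 2 it split, and Vegfa stood at 3433 CPM in the 22 cells led by Ager and Cldn18, while the highest Pgf in any cluster of at least 20 cells was 2.33 CPM, in 113 cells led by Ccl21a. Smaller clusters were not ranked at that resolution, so it was not settled which of the 39 cells held the Pgf counts. The 39 cells were also mixed, as Pdgfra stood at 233 CPM in them and at 0.164 CPM in the rest of the library. Clusters named endothelial-like gave 67.4% of the Vegfa counts from 79.8% of the cells and 85.7% of the UMIs. The unnamed cluster with surfactant genes, which had 12 of 12 endothelial markers at 100 CPM or more, gave a further 13.4%. It had 18.1% of the cells and 10.3% of the UMIs.

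Vegfc and Nrp2 met in a small venous-like cluster. Its 41 cells, led by Slc6a2, Fgl2, Cytl1, Car8 and Cpe, held Vegfc at 359 CPM (281 to 453) in 47.5% of thinned cells (31.5 to 63.9), and gave 30.6% of the Vegfc counts from 2.14% of the cells. They also held Nrp2 at 132 CPM (85.9 to 193), while their Vegfa, at 126 CPM (81.8 to 187), was the second lowest of the library. Another 33.6% of the Vegfc counts came from 340 cells led by Ccl21a, Igkc, Ccl5, Gzma and Ccl4, where Vegfc stood at 66.0 CPM and Flt4 at 84.7 CPM. The leading genes of that cluster mix a lymphatic chemokine with genes of plasma cells and lymphocytes. In the Lpl and Cxcr4 cluster Vegfc had 2 counts (1.80 CPM), and in the aerocyte-like cluster 5 counts (2.93 CPM). At Leiden resolution 0.5, which makes fewer clusters, the venous-like cells joined others and the highest Vegfc was 193 CPM.

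In fat P2, where 6648 of 7399 cells were fibroblast-like, ligands and co-receptors split between stromal states. Nrp1 was highest at 455 CPM (424 to 488) in 360 cells led by Fmo2, Cyp2f2, F3, Inmt and Cxcl12, which matched the adipogenesis-regulatory stroma markers, and was found in 55.1% of them (49.6 to 60.5). In 931 preadipocyte-like cells led by Nrep, Aoc3, Col4a1, Olfm2 and Col4a2 it stood at 183 CPM (172 to 195). These clusters together had 17.4% of the cells and 49.5% of the Nrp1 counts. Nrp2 was highest at 180 CPM (144 to 224) in 96 cells led by Apod, Spp1, Vwa1, Matn2 and Sdc3, and at 107 CPM (94.9 to 120) in 575 cells led by Igfbp2, Tnc, Pla2g7, Slit2 and Hc. Those had 9.07% of the cells and 60.2% of the Nrp2 counts. Both pairings were made after the values had been seen.

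The ligands of fat P2 had other sources. Vegfc was highest at 69.5 CPM (59.9 to 80.3) in the Igfbp2 and Tnc cluster and stood at 58.0 CPM (47.1 to 70.6) in the Fmo2 and F3 cluster, while the Apod cluster had 2.17 CPM. Vegfd was spread over the library: it ranged up to 119 CPM (107 to 131) in 538 cells led by Sult1e1, Il1r2, C7, Il18r1 and Ddx3y, and the median over 20 clusters was 75.1 CPM. Pgf was highest at 41.5 CPM (35.1 to 48.8) in the same Sult1e1 and C7 cluster and stood at 35.7 CPM (31.3 to 40.5) in 1220 cells led by Krtdap, Mrgprg, Ptx3, Dmkn and Dact2, but had 0 counts in the Fmo2 and F3 cluster. Vegfa varied up to 160 CPM. It was lowest, at 13.6 CPM (7.45 to 22.9), in 221 fibroblast-like cells led by Thbs4, Cilp, Hmcn2, Col8a1 and Myoc, which also had little Vegfd (27.3 CPM, 18.1 to 39.4).

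**Figure D4:**
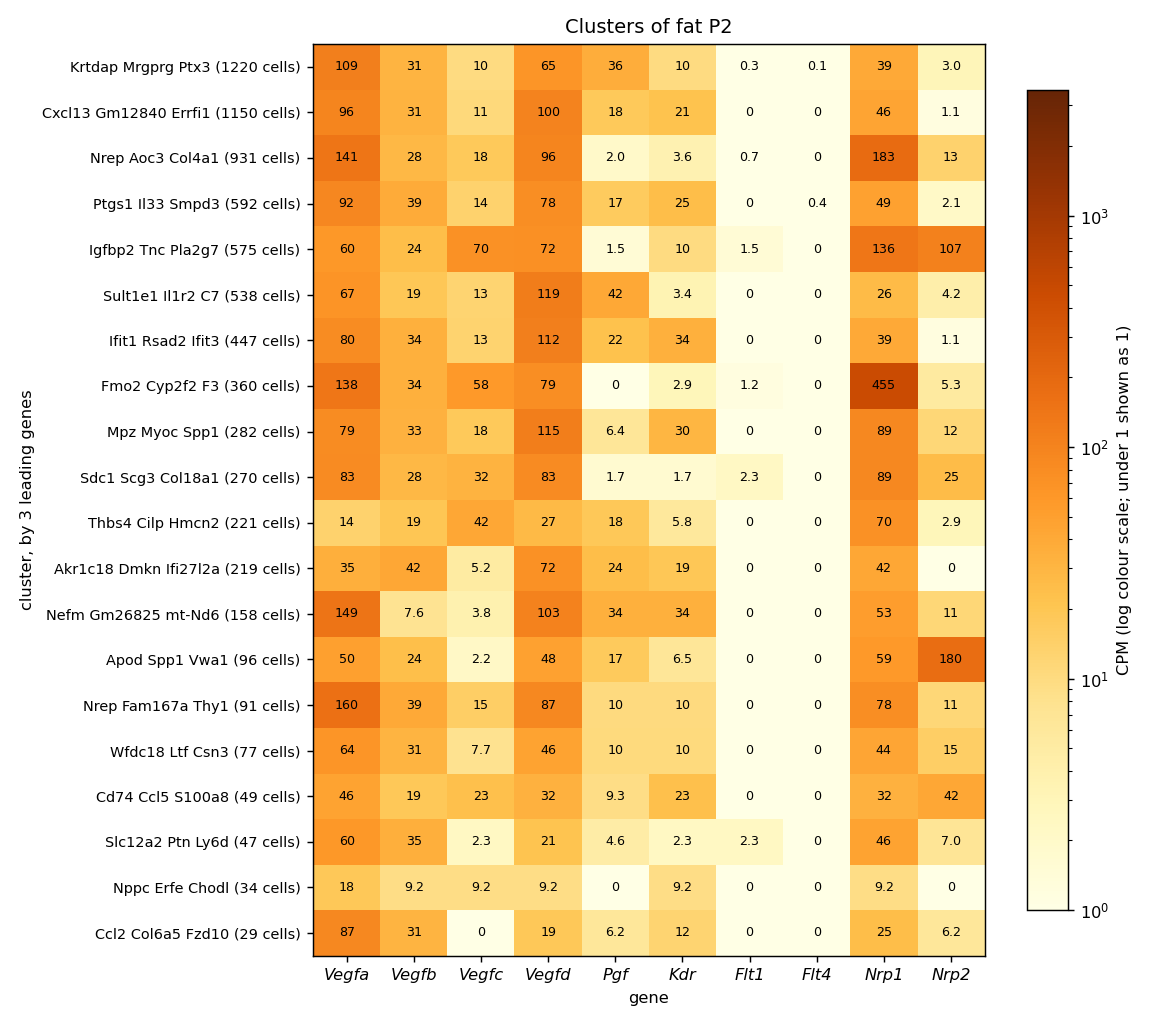
CPM of each VEGF gene (columns) in the 20 fat P2 clusters of at least 20 cells (rows, named by 3 leading genes, largest first), with colour on a log scale. Nrp1 peaks at 455 in the row with Fmo2 and Nrp2 at 180 in the row with Apod, whereas Flt1 and Flt4 are at or near 0 in all rows shown.

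A low level of Kdr in fat P2 came from fibroblast-like cells, and Flt1 did not. Of the 538 Kdr counts 433 (80.5%) lay in fibroblast-like cells, at 12.3 CPM (11.2 to 13.5), but only 16 of the 82 Flt1 counts did (0.454 CPM). Among the fibroblast-like clusters the highest were the 447 interferon-responding cells led by Ifit1, Rsad2, Ifit3, Isg15 and Iigp1, at 34.2 CPM (27.5 to 42.0), the 592 interstitial-progenitor-like cells led by Ptgs1, Il33, Smpd3, Akr1c18 and Sema3c, at 24.6 CPM (18.7 to 31.7), and the 1150 cells led by Cxcl13, Gm12840, Errfi1, Irf4 and Adgrg6, at 21.5 CPM (18.0 to 25.5). Flt1 had 0 counts in all 3. In the preadipocyte-like cluster Kdr stood at 3.65 CPM (2.23 to 5.63), and in 270 cells led by Sdc1, Scg3, Col18a1, Ednra and Adam12 at 1.70 CPM (3 counts). The 6200 cells without a UMI of any of the 12 endothelial markers still held Kdr at 12.2 CPM (10.98 to 13.5) and Flt1 at 0.413 CPM. A cluster of 13 cells with endothelial genes, below the size described otherwise, held 31 Kdr and 65 Flt1 counts, or 0.477 Kdr counts per Flt1 count, against 27.1 in the fibroblast-like cells. The level of 12.3 CPM is small beside the 1286 and 745 CPM of the P1 libraries.

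Among the lung P2 clusters of at least 20 cells, Vegfd and Vegfa were highest in stromal and unnamed clusters, and Nrp2 was high in these and in others. Vegfd reached 794 CPM (721 to 871) in 221 fibroblast-like cells led by Slc13a4, Fat3, Snhg11, Bmper and Vipr2, and was found in 75.5% (67.7 to 82.2) of them. It stood at 527 CPM (466 to 593) in 147 alveolar-fibroblast-like cells led by Ifi27l2a, Apoc1, Smim4, Gsta3 and Cdkn2c, and at 543 CPM (477 to 615) in 286 shallow, unnamed cells led by Hbb-bt, Tmc6, Gja5, Slc7a10 and Ppp4r4. Vegfa stood at 480 (425 to 542), 296 and 494 CPM in the same clusters, and Nrp2 at 373, 388 and 425 CPM. In 186 fibroblast-like cells led by Mmp3, Sema3d, Tmem35a, Steap4 and Mt2, Nrp2 was as high, at 379 CPM (333 to 431), beside lower Vegfd (244 CPM, 207 to 286) and Vegfa (140 CPM, 112 to 172). In 80 adventitial-fibroblast-like cells led by Adh7, Hmcn2, Angptl7, Dner and Aqp1, Vegfd was lower at 198 CPM (149 to 258) and Nrp2 at 75.6 CPM (46.8 to 116). In 79 cells led by Igkc, Scara5, Dcn, Ighm and Lum, Nrp2 was lowest among the larger clusters at 38.0 CPM (19.6 to 66.4). Nrp1 was more even, at 367 to 624 CPM in the 8 clusters of at least 50 cells. In the smallest cluster described, 20 cells led by Hhip, Cyp2e1, Igfbp5, Actg2 and Mustn1, Vegfa and Vegfd had 0 counts, which allows up to 49.1 CPM each.

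**Figure D5:**
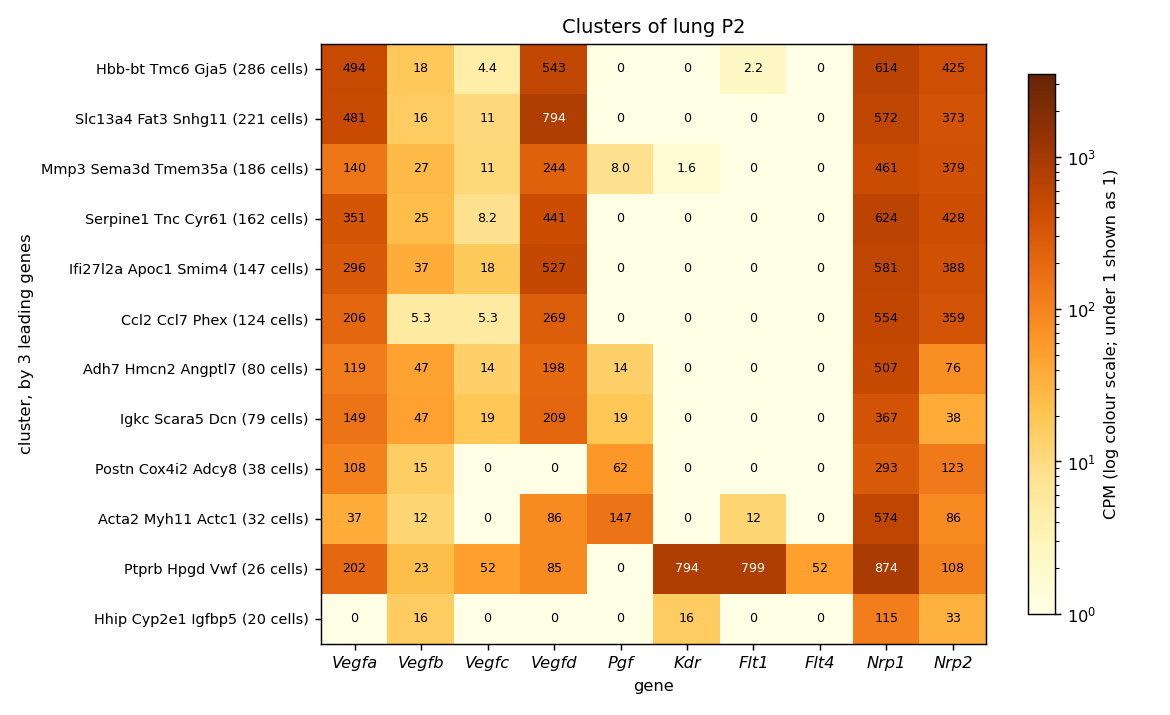
CPM of each VEGF gene (columns) in the 12 lung P2 clusters of at least 20 cells (rows, named by 3 leading genes, largest first), with colour on a log scale. Vegfd peaks at 794 in the row with Slc13a4, Pgf at 147 in the row with Acta2, and Kdr and Flt1 (794 and 799) appear in the row with Ptprb.

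In lung P2, Kdr, Flt1 and Flt4 came almost wholly from 1 small cluster, and Pgf was divided between mural-like and fibroblast-like cells. Mural cells, the smooth muscle cells and pericytes of vessels, gave 16 of the 31 Pgf counts (51.6%) from 4.93% of the cells. Pgf stood at 147 CPM (75.8 to 256) in the 32 mural-like cells led by Acta2, Myh11, Actc1, Tpm2 and Lmod1 and at 61.7 CPM (16.8 to 158) in the 38 led by Postn, Cox4i2, Adcy8, Higd1b and Trpc6. The fibroblast-like cells gave the other 15 counts (48.4%) from 71.8% of the cells. A cluster of 26 endothelial-like cells led by Ptprb, Hpgd, Vwf, Cldn5 and Pecam1 gave 98.8% of the Kdr, 98.8% of the Flt1 and 100% of the Flt4 counts of lung P2, at 794, 799 and 51.7 CPM. The P2 gate took cells without CD31, the product of Pecam1, so these cells go against the sort. The 1019 fibroblast-like cells had 2 Kdr, 0 Flt1 and 0 Flt4 counts. The whole-library values of Kdr and Flt1 therefore describe those few cells. They rest further on 3 barcodes of 26193 to 33080 UMIs in this cluster whose sequences also occur in another library. Without the 4 shared barcodes kept in lung P2, Kdr fell from 45.0 to 26.1 CPM and Flt1 from 45.2 to 25.0 CPM, and among cells with at most 5% mitochondrial UMIs they stood at 17.6 and 14.2 CPM. A cluster of 19 alveolar epithelial cells gave 9.58% of the Vegfa counts of lung P2, at 1214 CPM (997 to 1464).

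In the P1 library labelled lung, most larger clusters lay near the library level. The intervals of all 11 clusters of at least 20 barcodes held the library level for 9 members, and those of 10 clusters did for Vegfc. A smaller cluster stood higher: its 18 barcodes, led by Car3, Gm4070 and Gm42418, held Kdr at 1335 CPM and Flt1 at 1500.4 CPM, against 745 and 905 CPM in the library. With the members among the clustered genes, 30 barcodes led by the same genes held Kdr at 1303 and Flt1 at 1404 CPM. In the P1 library labelled fat the interval held the library level in 0 of 10 clusters for Kdr and Nrp1 and in 2 for Vegfa. Its clusters had at least 197678 UMIs each, against at most 134215 in the P1 library labelled lung, and more UMIs narrow the intervals.

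The genes most like each member in log2(CPM + 10) were sought among 6529 genes, across 39 clusters of at least 50 cells. These clusters came from all libraries, 7 of them from the P1 library labelled lung. Clusters of 1 library share depth and preparation, so the correlations are a description. Flt1 was most like Tie1 (Pearson r = 0.999), Ushbp1 (0.998) and Sox18 (0.997), all 3 of them genes of endothelium. Flt4 was most like Arap3 (0.983), Cdh5 (0.982) and Notch4 (0.982), and Kdr like Abi3 (0.975), Stab1 (0.970) and Pdgfb (0.967). Vegfd was most like Ptgis, the prostacyclin synthase (0.959), Aldh1a1, a retinaldehyde dehydrogenase (0.957), and Twsg1 (0.955). Nrp1 was most like Tmem204 (0.929), Tmem176a (0.918) and Hlx (0.915), and Nrp2 like Col13a1 (0.910), Il16 (0.908) and Nuak1 (0.894). Vegfa had looser neighbours in Atp7a (0.874), Atrx (0.861) and Itch (0.853), and so did Vegfc in Fxyd5 (0.785), Ifitm2 (0.775) and Ywhah (0.771).

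The pathway genes around the members are set beside all genes tested, of which 12.4% were higher and 10.1% lower in fat (median log2 0.38), and 8.61% higher and 11.8% lower in lung (median -0.12). Among 27 receptor partners and trafficking genes, 21 were tested in fat, and 8 were higher and 2 lower in P1 as labelled (median log2 1.24). The phosphatase gene Ptprb stood at 2743 against 3.07 CPM, VE-cadherin (Cdh5) at 2092 against 2.05 CPM and Efnb2 at 833 against 15.5 CPM. In lung as labelled, 6 were higher and 1 lower of 21 tested (median 0.51). Among them Emcn, endomucin, stood at 750 against 16.8 CPM and, on the lower side, the syndecan Sdc2 at 6.30 against 333 CPM. Ptprb, Cdh5 and Emcn are among the endothelial markers used to name clusters, and the sort itself sets such genes apart. Of 44 genes of receptor signalling, 29 were tested in fat with 4 higher and 1 lower (median 0.79), and 30 in lung with 3 higher and 2 lower (median 0.55). Between the P1 libraries, labelled lung over labelled fat, 2 of 28 tested signalling genes were higher and 1 lower, against 5.2% and 5.73% of all genes (median -0.50, against -0.31). Between lung P2 and fat P2, 0 of 26 tested signalling genes passed 4-fold, against 13.1% of all genes (median 0.23, against 0.15).

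Of the genes known to respond to VEGF in endothelium, 13 were tested in fat, with 7 higher and 4 lower in P1, against 12.4% and 10.1% of all genes (median 2.44). Plvap, the diaphragm protein of fenestrated capillaries, stood at 1443 against 20.2 CPM and Dll4, the Notch ligand of tip cells, at 227 against 0.154 CPM. Egr1, an immediate early gene, stood at 25.5 against 2494 CPM in the other direction. In lung as labelled 5 of 11 tested were higher and 0 lower, against 8.61% and 11.8% (median 1.004), with Esm1 at 221 against 1.05 CPM. Egr1 stood at 1346 CPM in the P1 library labelled lung and Nr4a1, also an immediate early gene, at 453 CPM against 9.14 CPM in the one labelled fat. With the P1 libraries exchanged, Egr1 in fat would stand at 1346 against 2494 CPM, under 4-fold. In lung it would stand at 25.5 against 908 CPM, and its direction would turn. The part of the immediate early genes in these counts was not tested. The P1 gate took cells with CD31 and the P2 gate cells without it, so genes of endothelium differ through the sort itself. Whether any of these genes responded to VEGF here was not tested.

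Of 10 genes that process VEGF-C and VEGF-D, 6 were tested in fat with 0 higher and 3 lower in P1 (median -1.46), and 6 in lung as labelled with 0 higher and 2 lower (median -0.90). Over all genes 10.1% were lower in fat and 11.8% in lung. The procollagen protease Adamts2 stood at 1.89 against 350 CPM in fat and 9.003 against 229 CPM in lung. Ccbe1, which helps VEGF-C cleavage, stood at 58.9 CPM in lung P2 and 1.94 CPM in fat P2. The plasminogen activators Plat and Plau stood at 556 and 86.4 CPM in fat P2 but at 92.1 and 0.789 CPM in lung P2. Of 22 hypoxia genes, 11 were tested in fat with 2 higher and 1 lower (median -0.0033), and 10 in lung with 1 higher and 0 lower (median 0.56), beside 22.6% of all genes called in fat and 20.4% in lung. Epas1, the HIF-2 alpha subunit, stood at 3239 CPM in the P1 library labelled fat, 625 CPM in the one labelled lung, 251 CPM in lung P2 and 21.7 CPM in fat P2. Hilpda, a hypoxia-induced lipid droplet protein, stood at 486 CPM in the P1 library labelled fat and at 15.8 to 31.5 CPM in the other libraries.

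Class 3 semaphorins, which compete with VEGFs for the neuropilins, and their plexins were tested for 9 of 13 genes in fat, with 5 higher and 1 lower in P1 (median 2.36), and for 6 in lung, with 2 higher and 1 lower (median 0.55). All genes gave 12.4% and 10.1% in fat, and 8.61% and 11.8% in lung. Sema3g and Sema3f stood at 442 and 391 CPM in the P1 library labelled fat and at 190 and 212 CPM in the one labelled lung, against 1.79 and 1.25 CPM in fat P2 and 10.5 and 20.3 CPM in lung P2. Sema3c stood at 1017 CPM in the P1 library labelled fat, 647 CPM in fat P2, 71.6 CPM in lung P2 and 4.502 CPM in the P1 library labelled lung.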

How the data were processed

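Per the labels, sorted cells were profiled with 10x Genomics 3′ chemistry, and per the submitters' processing notes with Cell Ranger 3.1.0 on mm10. The authors deposited counts (UMIs per gene and barcode, not normalized) as matrices of 31053 gene entries, and shared symbols were summed. Barcodes with at least 1000 UMIs, 500 genes and at most 10% mitochondrial UMIs were kept, which 1948 and 7898 barcodes of the P1 and P2 libraries labelled fat and 652 and 1436 of those labelled lung passed. Those with the highest Scrublet scores (0.8% per 1000 barcodes: 30, 499, 3 and 16) were then removed as doublets, because Scrublet's automatic threshold marked only 3 of the fat P2 barcodes. That threshold marked 10 barcodes in the P1 library labelled fat, 33 in the one labelled lung and 3 in lung P2. Median depths were 2949.5, 5066, 1560 and 2124.5 UMIs.

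Counts were summed per library or cluster and scaled to CPM, with exact Poisson 95% intervals. Shares have Clopper-Pearson 95% intervals. A floor is 3 counts. Intervals and floors cover counting error only. Clusters came from scanpy 1.11.5 (2000 variable genes without the members, 30 components, 15 neighbours, Leiden resolution 1). A cluster was named from the marker list with most members at 100 CPM and at least 3 of them, unless its 10 leading genes pointed elsewhere or its depth was low; this naming rule was set after the counts were seen. Leading genes printed are the first 5 against the rest of the library.

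The members, lists and rules were chosen with earlier results of these data known. Pathway genes named are up to 4 per list and comparison with the largest ratios, at 20 CPM or more, and not all of them are given. Gene positions came from GENCODE vM21 on GRCm38. Alternatives were other doublet, barcode and mitochondrial filters, TMM factors from edgeR 4.0.16, median-of-ratios scaling, other minimum levels and added counts, means over cells, named clusters only, and exchanged P1 libraries. The rule was tested on simulated data.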

Additional observations from a re-analysis of the deposited data

Results flagged for a closer look

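Vegfa is singled out because its direction between P1 and P2 differed between the tissues as labelled. The log2 ratio P1 over P2 was 2.24 in fat and -3.51 in lung, from 489 and 95.5 CPM in the libraries labelled fat P1 and fat P2 and from 17.1 and 299 CPM in those labelled lung P1 and lung P2. With 1 library per group the difference was not tested. Both ratios turn when the P1 libraries, whose tissue markers go against their labels, are exchanged. No other member was past 4-fold in opposite directions in the fat and lung comparisons.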

How the results depend on the processing

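No paired analysis was possible because each group has 1 library and the result comes from no test. Over 14 alternatives the number of members past 4-fold ranged from 5 to 6 in fat (P1 over P2), from 5 to 6 in lung, was 2 between the P1 libraries and ranged from 2 to 4 between the P2 libraries, each within 1.5 times the reported count. With the P1 libraries exchanged, the log2 ratio of Vegfa turned to -1.96 in fat, 0.69 in lung and 4.20 between the P1 libraries, and that of Nrp2 between the P1 libraries to -2.27; the exchange itself sets these signs. It also took Vegfc below 4-fold in lung (1.02) and put Nrp2 past 4-fold in fat (2.30) and, lower in P1, in lung (-3.57). Of the 17 calls, Kdr, Flt1, Flt4, Nrp1 and Vegfd against P2, and Nrp1 and Nrp2 between the P2 libraries, were kept under all 14 alternatives. The doublet setting changed no call. Without thinning, the share of cells with Vegfa in the P1 library labelled fat was 54.7% in place of 46.1%. At Leiden resolution 2 the 39 alveolar type 1-like cells split, Vegfa reached 3433 CPM in 22 of them, and the highest Pgf level in a cluster of at least 20 cells was 2.33 CPM. At the same resolution Nrp2 reached 803 CPM in 36 lung P2 cells led by Ccl2 and Ccl7. Depth limits the P1 library labelled lung most, where 161 barcodes could be thinned and 3 counts are 2.70 CPM.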

Other observations

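The 13 kept barcodes of the P1 library labelled fat whose sequence occurs in another library held Vegfa at 1228 CPM and Flt1 at 251 CPM, against 470 and 932 CPM in the other 1905. Among the 656 barcodes of the P1 library labelled lung that were not kept, Vegfa stood at 52.5 CPM (21 counts), against 17.1 CPM in those kept. In lung P2, the 503 kept cells with over 5% mitochondrial UMIs held Vegfd at 261 CPM and Kdr at 91.5 CPM, against 459 and 17.6 CPM in the 917 others. In fat P2 the same split gave Vegfd 69.3 and 86.8 CPM.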
